A study of Mus musculus with 72 samples.

Results

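The whole brain of DBA/2J (D2) mice was compared with that of C57BL/6J (B6) mice at postnatal day 7 (P7). Of the 72 arrays of the series, 6 make up this comparison: the 3 whose titles name D2 P7 brain and the 3 whose titles name B6 P7 brain. The animals were 7-day-old males of these inbred strains, bred as the F1 generation of mice bought from The Jackson Laboratory, and no treatment is recorded. The groups share age, sex and organ and differ by strain. The labels do not say whether 1 array holds 1 animal, whether replicates were littermates, or on which day each was processed, so p-values measure the spread between these samples only. The study measured male brain and liver of 3 strains (D2, B6 and 129S2) on Affymetrix arrays, at embryonic day E14.5 and postnatal days P1, P7 and P90, with 3 arrays in each group. Its title names the influence of copy number variation on transcripts. Another 3 arrays, from P7 brain of 129S2 males whose strain came from Charles River, entered the model fit to steady the estimate of the spread, and their values are given for orientation.

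At the end of the first week the mouse brain is in its phase of rapid wiring. Cortical neurons are in place and form synapses, cerebellar granule cells still divide, oligodendrocytes begin to wrap axons and astrocytes and microglia multiply. B6 and D2 are the parents of the BXD panel, a set of inbred lines used to map how inherited variants alter brain traits, and they differ in alcohol intake, drug withdrawal, hearing and seizures caused by sound.

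Values are log2 signals made by the authors with RMA, a method that summarises the probes of a probe set on a log scale, so that a difference of 1 is a 2-fold difference. The medians of the 9 P7 brain arrays lay between 7.21 and 7.26, and arrays correlated with each other at 0.982 to 0.997 across probe sets, which are not independent replicates. The brain marker Snap25, a protein of synaptic vesicle fusion, lay at 13.04 to 13.22 in the D2 arrays and 13.05 to 13.23 in the B6 arrays. The Y-linked Eif2s3y lay at 9.58 to 9.73 in D2 and 9.50 to 9.79 in B6, while Xist, which marks an inactive X chromosome, lay at 7.45 to 7.53 in D2 and 7.38 to 7.5 in B6. Each gene was represented by 1 probe set. Of 18194 genes, 12121 had a strain mean above the median of the set (7.23) and were tested.

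In limma's test over all 12121 genes, 198 were called, meaning a difference of at least 1.5-fold whose p, adjusted after Benjamini and Hochberg, was below 0.05 (1.63% of the genes tested). With the replicate number as a block all 198 were called, and 216 in all (1.78%). In D2, 82 were higher (0.677%) and 116 lower (0.957%) than in B6. At least 2-fold differences numbered 28 higher and 35 lower, and at least 4-fold differences 7 higher and 9 lower. The median difference of all tested genes was 0.007. By the same rule 193 genes differed between 129S2 and B6 (1.59%) and 158 between 129S2 and D2 (1.30%), comparisons that share the B6 or D2 arrays with this one. For 198 of the 198 called genes the 3 D2 and the 3 B6 arrays did not overlap. Among all tested genes the D2 arrays lay wholly above the B6 arrays in 1253 (10.3%) and wholly below in 974 (8.04%). For 21 of the 82 higher genes and 42 of the 116 lower genes, the mean of the strain with less signal lay under the filter. The files hold no detection calls, so folds of these genes are not exact.

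**Figure D1:**
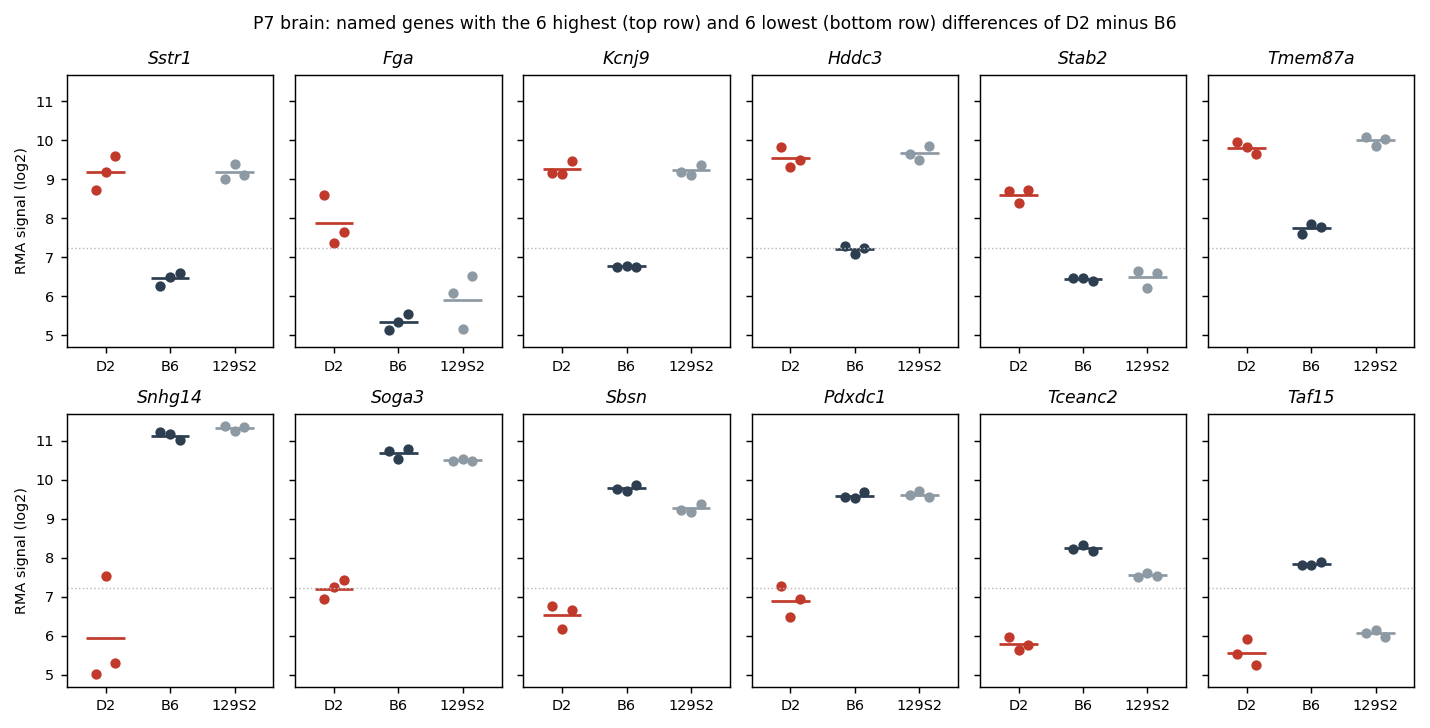
RMA signal (log2 units, y axis) of every P7 brain array for the 6 genes with the highest and the 6 with the lowest D2 minus B6 difference among named genes without clone-like symbols, with D2, B6 and 129S2 from left to right; points are arrays, lines are means of 3 arrays and the dotted line is the filter at 7.23. The D2 points of each gene lie wholly apart from the B6 points, and one D2 point of Snhg14, at 7.54, stands apart from the other D2 points.

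The highest difference belonged to Sstr1, an inhibitory G protein-coupled receptor for the neuropeptide somatostatin. It had 8.73, 9.19 and 9.61 in the D2 arrays, against 6.28, 6.50 and 6.60 in the B6 arrays, and 9, 9.40 and 9.12 in 129S2. Every B6 array lay under the filter, and the D2 and 129S2 arrays occupied the same range. The D2 difference was 2.72 ± 0.19 (SE, log2; 6.58-fold, adjusted p = 2.2e-05). Somatostatin itself, Sst, showed -0.09, and the receptors Sstr2 and Sstr4 showed 0.15 and -0.00, with no call.

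Kcnj9 encodes a subunit of the potassium channels that open when inhibitory receptors activate G proteins, and it lies in a chromosome 1 region mapped for drug withdrawal in crosses of these strains. It had 9.16, 9.15 and 9.47 in D2, against 6.76, 6.78 and 6.76 in B6, and 9.19, 9.12 and 9.38 in 129S2. The B6 arrays lay close together and were the low ones of the 3 strains. The difference was 2.49 ± 0.10 (5.63-fold, adjusted p = 3.8e-07). Of its 3 further probe sets, the 1 past the filter showed 0.29 and was not called, and those below the filter showed 1.14 and 0.02. The related subunit genes Kcnj3 and Kcnj6 showed -0.04 and 0.12 and were not called.

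Gabra2 encodes the alpha 2 subunit of the GABA-A receptor, the ion channel of fast inhibition, and C57BL/6J is known for an intronic deletion that lowers its expression. It had 10.06, 10.08 and 9.92 in D2, against 8.87, 8.49 and 8.32 in B6, and 10.29, 10.39 and 10.40 in 129S2. B6 was again the low strain. The difference was 1.46 ± 0.12 (2.74-fold, adjusted p = 7.7e-05), and a second probe set was called at 1.39. Another, past the filter, varied widely between arrays (0.99, not called). Of 11 GABA-A receptor subunit genes tested, Gabra2 was the 1 called, with a median of 0.05 over the list, and the other 10 lay between -0.22 and 0.29.

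Neuropeptides and their receptors gave 3 higher genes and none lower among 32 tested, with a median of 0.03. With the replicate block 4 were called, the added gene being the neurotensin receptor Ntsr2, lower in D2. Besides Sstr1 these were Vip and Tac2. Vip, the vasoactive intestinal peptide of a class of cortical interneurons and of the circadian pacemaker, had 9.77, 9.75 and 9.57 in D2, against 8.15, 8.67 and 8.61 in B6. Its difference was 1.22 ± 0.16 (2.33-fold, adjusted p = 0.0015), and no D2 array reached down to a B6 array. Tac2, which encodes neurokinin B, had 8.60, 8.38 and 8.37 in D2, against 7.73, 7.79 and 7.59 in B6 (0.75 ± 0.09, adjusted p = 0.0012). None of the markers of other inhibitory neurons was called: Sst showed -0.09, Npy -0.26, Pvalb 0.32, Calb2 -0.13 and the GABA-synthesising enzyme genes Gad1 and Gad2 -0.07 and 0.01. The hypothalamic peptide gene Pmch had the lowest value of the list, -1.37, and was not called (adjusted p = 0.37); its D2 arrays, at 9.48, 7.02 and 7.60, overlapped the B6 arrays at 9.64, 9.44 and 9.13.

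Among 23 genes of monoamine and cholinergic transmission, none was higher and 2 were lower, both transporters of monoamines. Slc6a3, the dopamine transporter of the cell membrane, had 6.58, 6.13 and 6.54 in D2, against 7.54, 7.31 and 7.12 in B6, and 6.51, 6.36 and 6.40 in 129S2. D2 and 129S2 lay under the filter and B6 near it. The difference was -0.90 ± 0.13 (1.87-fold, adjusted p = 0.0032), and the call was lost without the second array of each strain (-0.77, adjusted p = 0.052). Slc18a2, the transporter that loads monoamines into vesicles, had 7.09, 7.08 and 7.22 in D2, against 7.99, 7.91 and 7.57 in B6 (-0.69 ± 0.14, adjusted p = 0.018). Its call was lost in 4 of the 6 fits that left out 1 D2 or B6 array, with adjusted p between 0.062 and 0.086. The enzyme genes of dopamine synthesis, Th and Ddc, showed -0.13 and -0.39, the receptors Drd1 and Drd2 0.04 and 0.03 and the serotonin transporter Slc6a4 0.09, and none of them was called.

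Of 25 voltage-gated and related sodium and potassium channel genes Kcnj9 was the 1 called, and of 26 protocadherin and axon guidance genes Pcdhb3, a clustered protocadherin of neuronal adhesion, was the 1 called. Pcdhb3 had 8.43, 8.61 and 8.71 in D2, against 7.88, 7.60 and 7.67 in B6 (0.87 ± 0.10, adjusted p = 0.00064). Clustered protocadherins are closely related in sequence, so its probes may read more than 1 member. No gene was called by limma among 21 glutamate receptors and transporters (0 higher and 1 lower at an unadjusted p below 0.05), 28 synaptic vesicle and postsynaptic genes (5 and 1), 15 calcium channels (1 and 0) and 27 oxidative phosphorylation genes (1 and 0). Their medians lay between -0.03 and 0.08. Over all tested genes 854 were higher and 778 lower at that unadjusted threshold (13.5%).

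Beyond the signalling genes, several of the highest differences were in genes of other kinds. Hddc3, a metal-dependent phosphohydrolase, had 9.82, 9.33 and 9.51 in D2, against 7.28, 7.10 and 7.24 in B6 (2.35 ± 0.13, adjusted p = 2.9e-06). Tmem87a, a membrane protein of the Golgi, had 9.95, 9.82 and 9.64 in D2, against 7.60, 7.86 and 7.79 in B6 (2.05 ± 0.10, 4.15-fold). In both genes 129S2 lay at the D2 level, at 9.50 to 9.85 and 9.86 to 10.08. Stab2, a scavenger receptor of sinusoidal endothelium, had 8.69, 8.39 and 8.74 in D2, against 6.46, 6.47 and 6.39 in B6, and 6.66, 6.21 and 6.59 in 129S2 (2.17 ± 0.12, adjusted p = 4.5e-06). Here D2 was the strain that stood apart. The zinc finger gene Zfp949 (1.69 ± 0.08) and Rpl14, a protein of the large ribosomal subunit (1.63 ± 0.12), had the same pattern, with 129S2 within 0.07 of B6. Both probe sets of Zfp949 were called.

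Wdfy1, an adaptor of endosomal signalling, had 10.06, 10.14 and 10.22 in D2, against 8.74, 8.58 and 8.44 in B6 (1.55 ± 0.10, 2.93-fold). Each of its 3 probe sets past the filter was called, between 1.36 and 1.86. Myh7, the slow myosin heavy chain of heart and muscle, had 9.02, 8.59 and 8.67 in D2, against 7.37, 7.07 and 7.49 in B6 (1.45 ± 0.12). Myosin heavy chain genes resemble each other in sequence, so the source of this signal is uncertain. Car2, a carbonic anhydrase of red cells, oligodendrocytes and choroid plexus, had 11.18, 11.06 and 11.03 in D2, against 10.15, 10.16 and 10.15 in B6 (0.93 ± 0.06, adjusted p = 1.6e-05), and was not called with all 36 brain arrays (adjusted p = 0.098). It was the 1 called of 6 erythroid genes tested, and none of 8 choroid plexus genes was called by limma (0 higher and 0 lower at an unadjusted p below 0.05).

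The lowest difference belonged to Snhg14, a long noncoding RNA of the imprinted Prader-Willi and Angelman region that hosts small nucleolar RNAs and runs antisense to Ube3a in neurons. It had 5.01, 7.54 and 5.29 in D2, against 11.22, 11.16 and 11.02 in B6, and 11.37, 11.26 and 11.36 in 129S2. B6 and 129S2 lay together, and the second D2 array stood apart from the other D2 arrays. The difference was -5.19 ± 0.51 (36.4-fold, adjusted p = 0.00026) and became -5.98 without that array. A second probe set of Snhg14 past the filter showed -0.01, with 8.19, 7.90 and 7.75 in D2 against 8.16, 7.88 and 7.83 in B6. The imprinted neighbours Ube3a, Snrpn and Ndn showed -0.04, 0.16 and -0.12, and none of 20 imprinted genes tested was called by limma (1 higher and 2 lower at an unadjusted p below 0.05).

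Soga3, a gene related to microtubule-organising proteins, had 6.95, 7.24 and 7.42 in D2, against 10.73, 10.53 and 10.79 in B6 (-3.48 ± 0.11, 11.2-fold, adjusted p = 2.6e-07). Its second probe set, past the filter, showed -0.33 and was not called. Sbsn, a secreted protein of stratified epithelia, had 6.76, 6.17 and 6.66 in D2, against 9.76, 9.70 and 9.87 in B6 (-3.25 ± 0.13), and a second probe set was called at -2.36. Tceanc2, named for a domain of transcription elongation factors, had 5.97, 5.64 and 5.76 in D2, against 8.22, 8.32 and 8.18 in B6 (-2.45 ± 0.09), with a second probe set called at -1.25. In 129S2 it lay between the other two strains, at 7.51, 7.61 and 7.54.

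Taf15, an RNA-binding protein, had 5.52, 5.92 and 5.26 in D2, against 7.82, 7.82 and 7.89 in B6 (-2.27 ± 0.14, 4.84-fold). Acer3, a ceramidase of the Golgi and endoplasmic reticulum, had 6.36, 6.16 and 5.97 in D2, against 8.27, 8.06 and 8.03 in B6 (-1.96 ± 0.10). Myo7a, an unconventional myosin known for hair cells of the inner ear and for Usher syndrome, had 6.74, 6.58 and 6.82 in D2, against 8.51, 8.59 and 8.89 in B6 (-1.95 ± 0.10). The D2 means of these 3 genes lay under the filter. Rmst, a long noncoding RNA of the developing midbrain, had 6.48, 6.28 and 6.21 in D2, against 8.21, 7.83 and 7.97 in B6 (-1.68 ± 0.13), and 6.56, 6.14 and 6.49 in 129S2. Rpgrip1, a protein of the photoreceptor connecting cilium, had 8.65, 8.20 and 8.27 in D2, against 10.16, 10.07 and 10.07 in B6 (-1.72 ± 0.13). The remaining lowest named genes were Zzef1 (-1.80), the antisense transcript Smc2os (-1.76), the dystrophin-complex protein gene Sspn (-1.70) and Nudt19, which cleaves coenzyme A (-1.56). For Smc2os, an antisense transcript, the signal is read by the strand its probes match.

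Lists of cell types, cell states and pathways were laid beside these genes. Of 43 lists, with 603 distinct genes tested, 24 genes were called (3.98%), and 22 lists held none. The lists include loci chosen because D2 and B6 are known to differ there, so this share is no measure of the brain as a whole. In whole tissue, fewer cells of a type and less RNA per cell cannot be told apart.

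**Figure D2:**
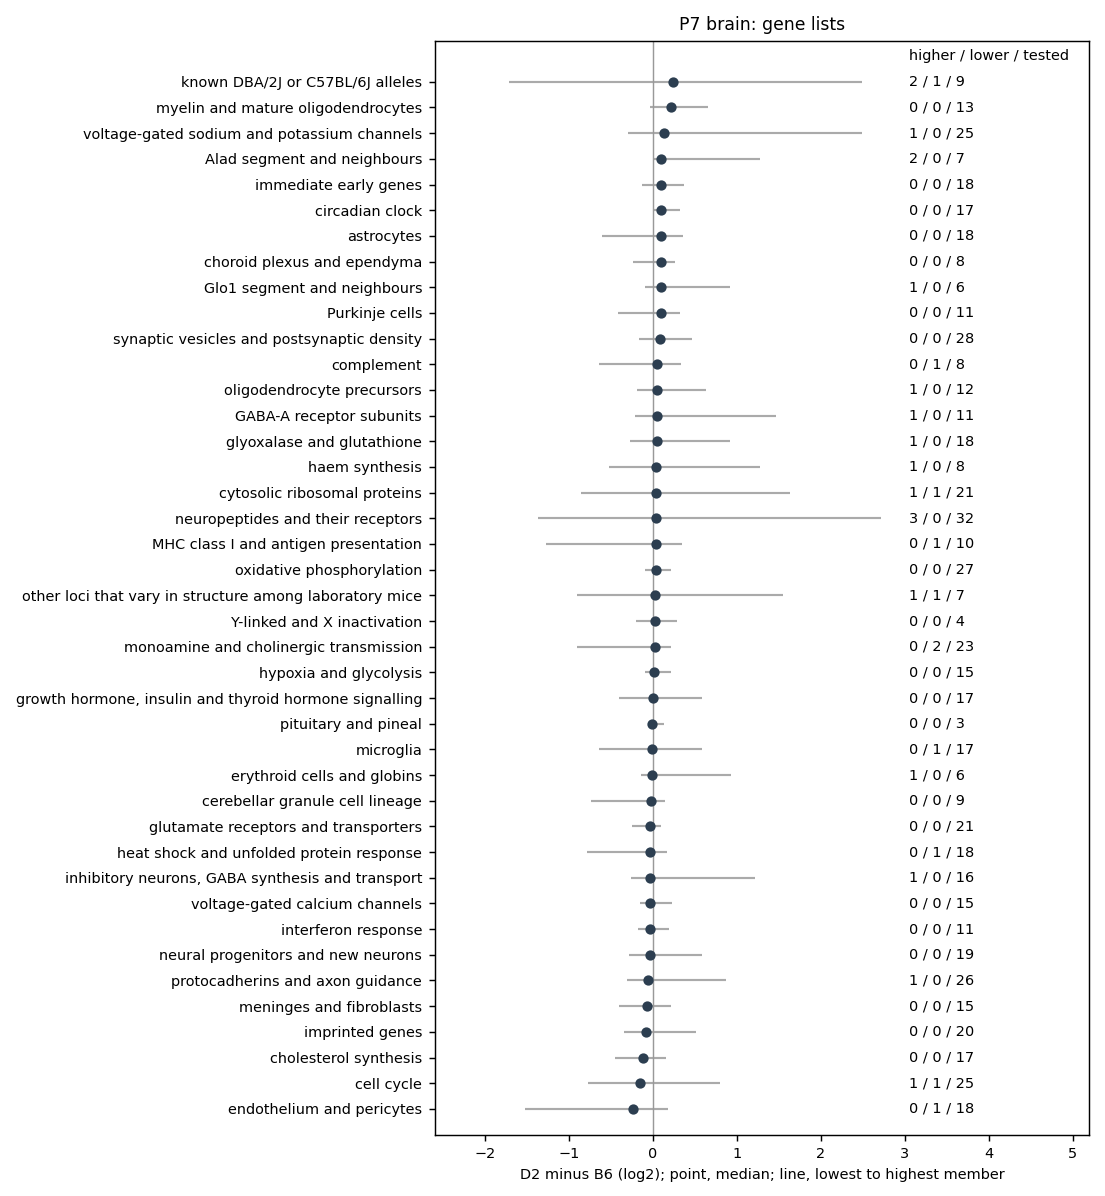
D2 minus B6 in P7 brain (log2, x axis) for every gene list with at least 3 tested members; points are medians, lines run from the lowest to the highest member, and the figures at the right give members called higher, called lower and tested. Medians lie between -0.24 (endothelium and pericytes) and 0.24 (known DBA/2J or C57BL/6J alleles), and long lines come from single genes such as Sstr1 and Kcnj9.

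Of 19 progenitor and newborn neuron genes none was called by limma (median -0.04; 1 higher and 1 lower at an unadjusted p below 0.05), nor any of 11 Purkinje cell genes (median 0.09; 4 and 1), 9 granule cell lineage genes (median -0.02; 0 and 1) or 18 astrocyte genes (median 0.10; 2 and 1). With the replicate number as a block, 1 gene of each of the last 2 lists was called: the granule cell transcription factor Zic1 (-0.74, adjusted p = 0.013 with the block and 0.33 without) and the astrocytic neurotensin receptor Ntsr2 (-0.61, adjusted p = 0.035 with the block and 0.066 without). Myelin genes had a median of 0.21, with 0 of 13 called and 6 higher and 0 lower at an unadjusted p below 0.05. Among them Mbp, a major protein of compact myelin, showed 0.65 (adjusted p = 0.27) and Cnp 0.32 (0.18). The summed linear signal of the myelin list ranged from 13213 to 15871 in D2, against 9144 to 12735 in B6, so the D2 arrays lay above the B6 arrays. Of the oligodendrocyte precursor genes, 1 of 12 was called, the matrix protein gene Matn4, which had 8.87, 8.73 and 8.83 in D2, against 8.29, 7.96 and 8.30 in B6 (0.63 ± 0.09, adjusted p = 0.0035). Its call was lost without the second B6 array (0.52, under the fold minimum), without the second array of each strain (0.56) and with all 36 brain arrays (adjusted p = 0.1).

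Of 25 cell cycle genes 2 were called, 1 in each direction, with a median of -0.15. Mcm6, a subunit of the replicative helicase, had 8.03, 8.26 and 8.41 in D2, against 8.82, 9.01 and 9.22 in B6 (-0.78 ± 0.13, adjusted p = 0.0066), and a second probe set was called at -0.95. Without the second array of each strain its call was lost (-0.80, adjusted p = 0.11). The other helicase subunits Mcm2, Mcm3, Mcm5 and Mcm7 showed -0.00, -0.21, -0.17 and -0.21 and were not called. Ccnd1, the cyclin that starts the cycle, had 10.04, 9.85 and 10.09 in D2, against 9.22, 9.10 and 9.26 in B6 (0.80 ± 0.12, adjusted p = 0.0051). Its further probe sets past the filter showed -0.01 and 0.15 and were not called, and with its probe sets averaged the call was lost (0.31, adjusted p = 0.28). At an unadjusted p below 0.05, 1 gene of the list was higher and 7 were lower.

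Endothelial and pericyte genes had the lowest median of the plotted lists, -0.24. Of 18 tested, 1 was called, and at an unadjusted p below 0.05, 1 was higher and 10 were lower. The called gene was Vwf, von Willebrand factor, which endothelial cells store and secrete. It had 6.26, 6.41 and 6.37 in D2, against 7.71, 7.94 and 7.98 in B6, and 7.57, 8.09 and 7.32 in 129S2 (-1.53 ± 0.16, 2.89-fold, adjusted p = 0.00044). D2 was the low strain, with its arrays under the filter. Smaller differences that missed the 1.5-fold minimum were those of the tight junction gene Cldn5 (-0.44, adjusted p = 0.043), the receptor Tek (-0.49, adjusted p = 0.02), the endothelial cadherin Cdh5 (-0.45, adjusted p = 0.0097) and the pericyte receptor Pdgfrb (-0.51, adjusted p = 0.013). The blood-brain barrier transporters Slc2a1, Slco1c1 and Mfsd2a showed 0.01, 0.00 and -0.01. The summed signal of the list was 12088 to 13336 in D2 and 13876 to 14614 in B6.

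Microglial genes had a median of -0.01, and 1 of 17 was called. C1qb, a chain of the first complement component, had 8.73, 8.32 and 8.47 in D2, against 9.24, 9.01 and 9.18 in B6 (-0.64 ± 0.11, adjusted p = 0.0094). The companion chains C1qa and C1qc showed -0.03 and -0.41 and were not called, and the call of C1qb was lost with its probe sets averaged (-0.54, adjusted p = 0.071), without the second D2 array (-0.54, under the fold minimum) and without the second array of each strain (-0.61, adjusted p = 0.05). The microglial receptor P2ry12 showed 0.58 (adjusted p = 0.0094), just short of the fold minimum. Hspa1a, an inducible heat shock protein, was the 1 called of 18 stress response genes and had 7.32, 7.12 and 7.20 in D2, against 7.91, 7.81 and 8.30 in B6 (-0.79 ± 0.11, adjusted p = 0.0031). Ribosomal protein genes moved as single genes, with Rpl14 higher and Rps6 lower (-0.86 ± 0.07, adjusted p = 0.00011) among 21 tested.

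A group of transcripts that the adult liver secretes or uses was higher in D2 brain. Fga, the alpha chain of fibrinogen, had 8.60, 7.37 and 7.66 in D2, against 5.15, 5.34 and 5.55 in B6, and 6.08, 5.16 and 6.53 in 129S2 (2.53 ± 0.35, 5.76-fold, adjusted p = 0.0026). Fgg, the gamma chain and its neighbour on chromosome 3, had 7.96, 7.02 and 7.27 in D2, against 5.48, 5.64 and 5.42 in B6 (1.90 ± 0.33, adjusted p = 0.0088). Serpina1b, a protease inhibitor of plasma, differed by 1.5 ± 0.27 (adjusted p = 0.012). Alb, albumin, had 11.79, 11.40 and 11.45 in D2, against 9.99, 10.16 and 10.10 in B6, and 11.14, 9.81 and 11.17 in 129S2 (1.47 ± 0.30, adjusted p = 0.022). In each of these genes the B6 arrays lay close together and the first D2 array was the highest. The call of Alb was lost in each of the 6 fits that left out 1 D2 or B6 array, with adjusted p between 0.054 and 0.083. That of Serpina1b was lost without the first D2 array (adjusted p = 0.052) or the first B6 array (0.053). In a fit of all 36 brain arrays Alb, Serpina1b and Fgg were not called (adjusted p = 0.57, 0.42 and 0.11).

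The promoter bases of 3 of these genes are shown because they share an expression pattern. They were taken from RefSeq for the reference assembly GRCm38.p6, which is a B6 genome, and the D2 sequence was not used here. Each is the 200 bases before the annotated start, read 5′ to 3′ on the plus strand, with capitals for GTTAAT or its reverse complement ATTAAC, a motif of the liver factor HNF1. Fga lies at chr3:83025953-83026152, Fgg at chr3:83007524-83007723 and Alb at chr5:90460670-90460869.
Fga: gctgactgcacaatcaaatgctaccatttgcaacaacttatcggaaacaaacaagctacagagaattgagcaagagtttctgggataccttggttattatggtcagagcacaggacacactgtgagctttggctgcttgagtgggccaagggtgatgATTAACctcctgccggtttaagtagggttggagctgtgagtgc
Fgg: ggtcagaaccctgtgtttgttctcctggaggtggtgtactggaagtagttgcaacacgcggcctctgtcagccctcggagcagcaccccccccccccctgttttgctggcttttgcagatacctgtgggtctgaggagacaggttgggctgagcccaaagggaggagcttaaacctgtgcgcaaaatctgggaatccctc
Alb: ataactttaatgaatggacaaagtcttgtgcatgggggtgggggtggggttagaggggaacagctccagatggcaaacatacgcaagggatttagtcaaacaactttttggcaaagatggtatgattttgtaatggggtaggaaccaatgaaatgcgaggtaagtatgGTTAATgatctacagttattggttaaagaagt
Of the 3, Fga and Alb held 1 match each and Fgg held none. Searched on both strands over the same length, the letters occurred in 5.06% of the 32851 promoters in the RefSeq table. They occurred in 11 of the 30 liver transcripts described next that the table holds, and in 4 of the 9 of them that were called. The share counts single promoters, whereas a transcript counted if any of its promoters held the letters, so the share is no like background for these counts. A match describes these letters only.

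Because these genes stood together, a list of 40 transcripts abundant in liver was drawn up after the values had been seen, and its counts support nothing beyond themselves. Of the list, 36 were on the array, 21 were tested, 9 were called higher and none lower (15 with the replicate block). Over all tested genes 0.677% were called higher and 0.957% lower. The median of the 21 was 0.78. The 9 were Fga, Fgg, Alb, Serpina1b, Ahsg (1.33), Igfbp1 (1.34), Cyp2e1 (0.74), Rbp4 (0.67) and Itih3 (0.62), of which the last 5 were named after their values were seen. Of these 9, Fga, Fgg and Igfbp1 passed the filter only through their D2 means, so the count of calls leans higher in advance. The next count includes transcripts below the filter, whereas its comparison shares are of tested genes only. The 3 D2 arrays lay wholly above the 3 B6 arrays in 33 of the 36 transcripts and wholly below in 0, against 10.3% and 8.04% of all tested genes. The exceptions were the apolipoprotein gene Apob (-0.03) and the amino acid enzyme genes Tat and Tdo2. The summed linear signal of the 36 was 13636, 9609 and 10647 in D2, against 5697, 5960 and 5894 in B6, and 8938, 5198 and 9251 in 129S2.

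**Figure D3:**
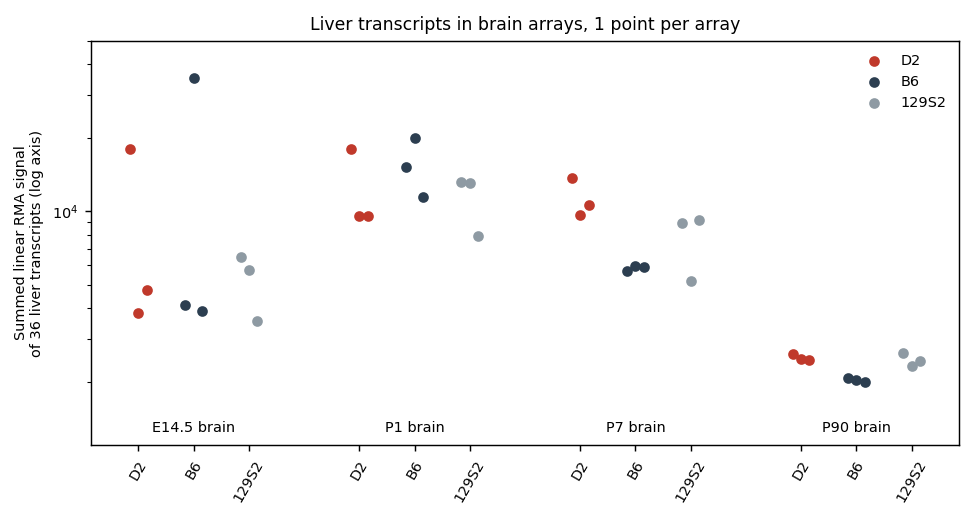
Summed linear RMA signal of 36 liver transcripts (y axis, log scale) in each brain array of D2, B6 and 129S2 at 4 stages, 1 point per array. At P7 the D2 arrays (9609 to 13636) lie above the B6 arrays (5697 to 5960), and so they do at P90 (2468 to 2609 against 1992 to 2079). At P1 the strains overlap, and at E14.5 single arrays of D2 and B6 stand far above the others of their group. Sets of stages had been normalized apart, so heights compare within a stage.

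The same sums varied from array to array at E14.5 and P1. At E14.5 they were 17931, 3845 and 4738 in D2, against 4145, 35091 and 3904 in B6. At P1 they were 17930, 9523 and 9540 in D2, against 15174, 19934 and 11409 in B6. The P90 sums lay closer together, at 2609, 2471 and 2468 in D2, against 2079, 2032 and 1992 in B6. There too the D2 arrays lay wholly above the B6 arrays. The mean log2 signal of the list overlapped at P90 (5.18 to 5.29 in D2 and 5.15 to 5.24 in B6). In P7 liver, D2 minus B6 was 0.16 for Fga, 0.09 for Fgg, -0.00 for Alb and 0.03 for Serpina1b. In brain at E14.5, P1 and P90, D2 minus B6 was -0.42, -0.24 and -0.17 for Fga, and -0.3, -0.45 and -0.1 for Fgg. For Alb it was -0.41, -0.56 and -0.63, called lower in D2 at P90. For Serpina1b it was -0.31, -0.17 and 2.57, called higher in D2 at P90, as was Itih3 (0.67). Of the 12121 tested genes, 75 (0.619%) had at least 16-fold more signal in P7 liver than in P7 brain of B6. They made up 10 of the 82 higher and 1 of the 116 lower genes, the 10 being the 9 liver transcripts named above and Stab2. The set was chosen with B6 brain values, and members such as Fga passed the filter only through D2. Its split therefore leans towards higher genes in advance and adds no support. Without them 187 genes were called. The part of liver transcripts in the other differences was not tested.

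Copy number differs between these strains at known segments, among them those of Glo1 and Alad. Glo1 encodes glyoxalase, which detoxifies methylglyoxal and has been tied to anxiety-like behaviour in mice, and D2 carries a known duplication across it. It had 11.78, 11.68 and 11.61 in D2, against 11.02, 10.82 and 10.47 in B6, and 12.22, 12.31 and 11.79 in 129S2 (0.92 ± 0.15, 1.89-fold, adjusted p = 0.0077). Each of its 4 probe sets was called, at 0.92, 1.09, 1.16 and 0.60, and the D2 and B6 arrays did not overlap in any of them. The genes around it on chromosome 17 were not called: Btbd9 showed -0.02, Dnah8 0.22, Zfand3 -0.10 and Mdga1 0.14. Without the second array of each strain the call of Glo1 was lost (0.95, adjusted p = 0.11).

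Alad encodes aminolevulinate dehydratase, the second enzyme of haem synthesis, and also lies in a segment that is duplicated in D2. It had 10.33, 9.93 and 10.28 in D2, against 8.89, 8.78 and 9.02 in B6, and 9.58, 9.65 and 9.68 in 129S2 (1.28 ± 0.11, 2.43-fold, adjusted p = 7.5e-05). The 129S2 arrays lay between those of D2 and B6. Its second probe set showed 0.44. The adjacent gene Hdhd3, a phosphatase-like protein gene, had 7.59, 7.34 and 7.46 in D2, against 6.70, 6.59 and 6.80 in B6 (0.77 ± 0.10, adjusted p = 0.0015). The 5 other tested genes of the neighbourhood, Pole3, Prpf4, Slc31a1, Slc31a2 and Fkbp15, lay between 0.01 and 0.10 and were not called. Of 8 haem synthesis genes tested Alad was the 1 called, with a median of 0.04 over the list, and Ppox, at -0.52 (adjusted p = 0.0066), missed the fold minimum.

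Neighbouring genes called in the same direction formed 6 runs of 13 genes among 12072 tested genes with a position. The longest, on chromosome 13, held 4833420G17Rik (-1.31), Tmem267 (-2.08) and Ccl28 (-0.65), all lower in D2. Tmem267, a membrane protein gene, had 6.60, 6.17 and 6.38 in D2, against 8.94, 8.57 and 7.88 in B6, and 4833420G17Rik had 9.14, 9.2 and 9.14 in D2, against 10.44, 10.52 and 10.44 in B6. In all 3 genes the 129S2 arrays lay within or below the range of the D2 arrays. Pairs higher in D2 were Fgg and Fga, Hdhd3 and Alad, AI506816 (2.42) and the pseudouridine synthase gene Pus7 (0.61) on chromosome 5, and the receptor gene Gprc5b (1.13) and Thumpd1 (0.62) on chromosome 7. The oocyte and early embryo genes Dppa5a (-0.62) and Ooep (-0.72) on chromosome 9 formed a pair lower in D2. The calls of Gprc5b, Thumpd1, Pus7, Dppa5a and Ooep were each lost when at least 1 single array was left out (Thumpd1 at 0.58 without the first D2 array), and 3 runs were left without the third D2 array.

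Among 9 tested genes with known DBA/2J or C57BL/6J alleles, Gabra2, Kcnj9 and Rpgrip1 were called, and these alleles were the reason for their place on the list. The mitochondrial transhydrogenase gene Nnt, of which B6 lacks several exons, showed 0.35 (adjusted p = 0.18). Myo5a, the coat colour myosin disrupted in the dilute D2 coat, showed -0.35 (adjusted p = 0.089). Ahr showed 0.24 and Crb1 0.09, with no call, and Mpdz, tied to seizure susceptibility in these strains, showed -0.29 (adjusted p = 0.046), under the fold minimum. Apoa2 showed 0.78 and was not called (adjusted p = 0.16), but it was with the replicate block (0.041) and without the second 129S2 array (0.031), and it belongs to the liver transcripts above. Of 7 tested genes at other loci that vary in structure, Wdfy1 was higher and Trim34a, of an antiviral gene cluster, lower (-0.91 ± 0.09, adjusted p = 0.0003).

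How far a difference belonged to the gene or to 1 probe set could be read from genes with several probe sets. Of the 198 called genes, 90 had 1 probe set, 34 had more but no other past the filter, and 74 had another past the filter. Tested apart, 514 of 23420 probe sets were called (2.19%). In 29 of those 74 (39.2%) a further probe set was called in the same direction, 12 higher and 17 lower, and in 8 one was called in the opposite direction. Probe sequences were not used here, and whether strain variants lie under the probes was not tested.

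**Figure D4:**
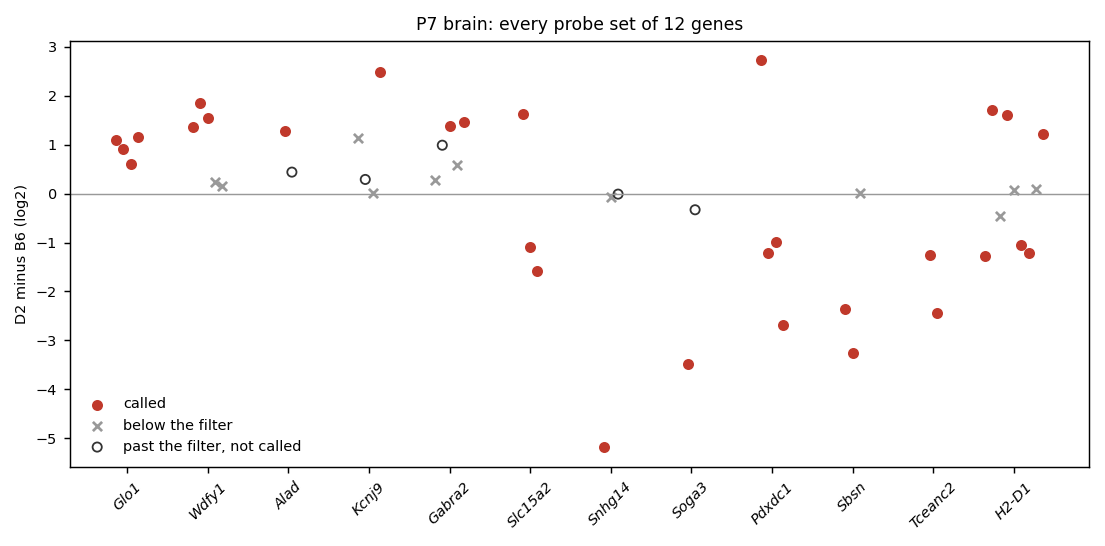
D2 minus B6 in P7 brain (log2, y axis) of every probe set of 12 genes (x axis); filled points are called, open points are past the filter and not called, and crosses are below the filter. The 4 probe sets of Glo1 lie together between 0.60 and 1.16, while those of Slc15a2, Pdxdc1 and H2-D1 lie on both sides of 0.

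The clearest disagreements were in Pdxdc1, Slc15a2 and H2-D1. For Pdxdc1, a decarboxylase-like gene, the probe set with the most signal over all brain arrays had 7.28, 6.47 and 6.95 in D2, against 9.56, 9.52 and 9.68 in B6 (-2.69). Another had 10.34, 10.36 and 10.37 in D2, against 7.63, 7.58 and 7.66 in B6 (2.73), and 2 more were called at -0.99 and -1.21. For Slc15a2, a peptide transporter of choroid plexus and astrocytes, the chosen probe set had 10.71, 10.84 and 10.82 in D2, against 9.09, 9.16 and 9.24 in B6 (1.63). Both others were called the opposite way, at -1.10 and -1.58. H2-D1, a polymorphic class I antigen, had 9 probe sets, of which 6 were past the filter and all called, 3 lower (-1.27, -1.21 and -1.04) and 3 higher (1.21, 1.71 and 1.60). When all its probe sets were averaged, Slc15a2 turned to -0.35 and H2-D1 to 0.08. No direction of gene expression is drawn for these 3 genes. The kinase gene Camk4, the receptor gene Paqr7 and Gadd45gip1, named after their values were seen, also had probe sets called both ways.

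The same strain difference was also measured in arrays that share no sample with P7 brain. The same probe sets were read in each, so a recurring call does not separate gene expression from an effect of the probe set. Pdxdc1, whose probe sets disagree, was called in all 4 brain stages. Of the 198 called genes, 119 were called in the same direction in P1 brain (60.1% of the 198 and 73.0% of the 163 called at P1, which were 1.34% of the genes), 115 in P90 brain (58.1%, and 42.9% of 268 called, 2.21%), 85 in E14.5 brain (42.9%, and 35.9% of 237 called, 1.96%) and 70 in P7 liver (35.4%, and 17.5% of 401 called, 3.31%). Calls in the opposite direction numbered 0, 4, 1 and 4. All these counts cover the 12121 genes past the P7 brain filter, so genes with signal only in another set are left out. In all 4 brain stages 58 genes were called the same way, and 36 of these in P7 liver too. Another 41 were called in the same direction in no other brain stage, and 34 of them not in P7 liver either. Among the 41, Slc6a3 (1.63), Slc18a2 (0.81) and Alb (-0.63) were called in the opposite direction at P90. A call missed at another stage does not show that the difference is absent there.

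**Figure D5:**
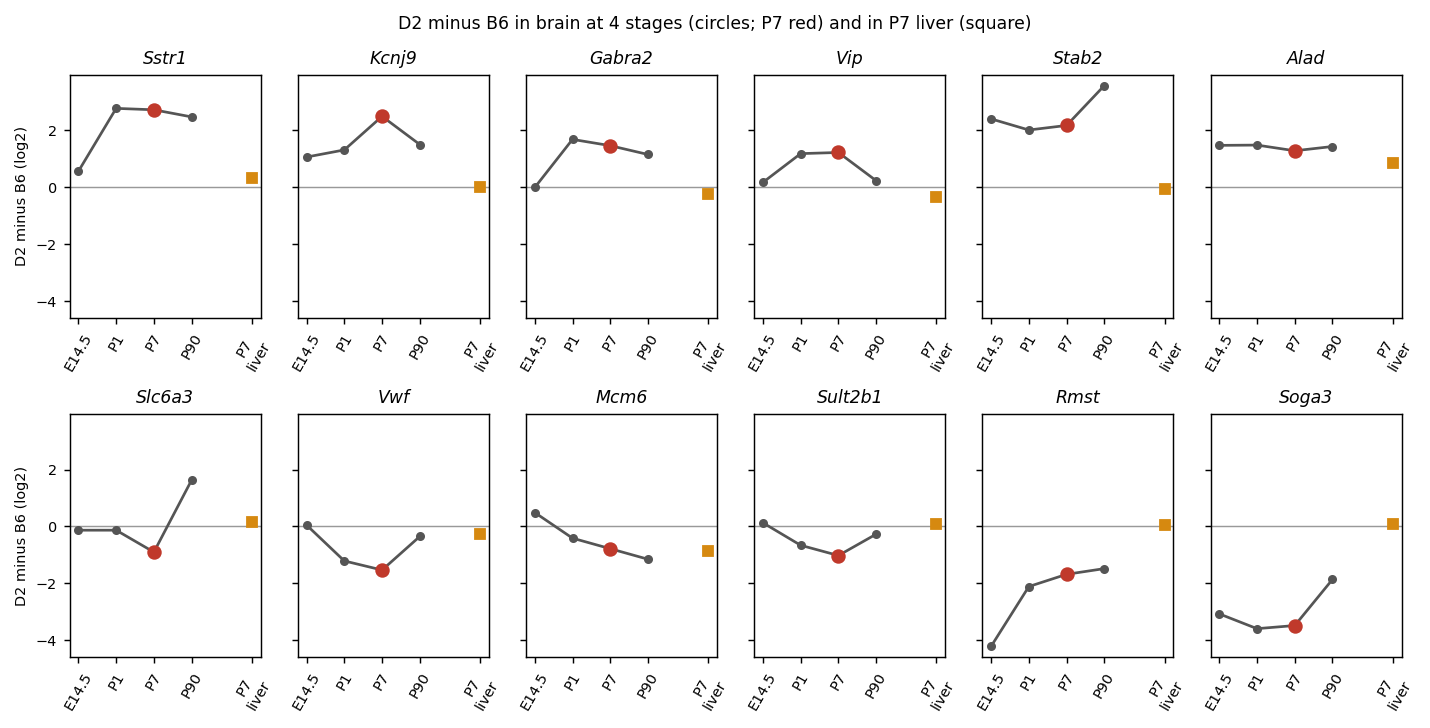
D2 minus B6 (log2, y axis) of 12 genes in brain at E14.5, P1, P7 and P90 (circles, P7 in red) and in P7 liver (square). Alad stays between 1.28 and 1.48 in brain, Kcnj9 has its highest value at P7 (2.49), and Slc6a3 is at -0.90 at P7 and at 1.63 at P90.

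The values of single genes at each stage are given as a description. Alad was at 1.47, 1.48, 1.28 and 1.43 through the 4 stages, youngest first, and Glo1 at 1.07, 1.07, 0.92 and 1.03. Sstr1 and Gabra2 were at 0.56 and -0.01 at E14.5 and at 2.77 and 1.68 at P1, and both stayed higher at P7 and P90. Vip was at 0.17, 1.18, 1.22 and 0.23, and Vwf at 0.05, -1.21, -1.53 and -0.35. Rmst was at -4.21 at E14.5 and at -2.11, -1.68 and -1.48 later. Whether P7 differs from the other stages was tested by 1 contrast, D2 minus B6 at P7 against its mean at the other 3 stages, in a fit of 36 brain arrays. None of these 7 genes passed it: the adjusted p was 0.3 for Sstr1, 0.4 for Gabra2, 0.14 for Vip, 0.24 for Vwf and 0.09 for Rmst, and 1 for Alad and Glo1. It compares sets that were normalized apart, so a scale that differs between sets would enter it.

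That contrast called 6 genes (0.0495% of 12121), 2 higher and 4 lower at P7, and 648 had an unadjusted p below 0.05. Kcnj9 differed by 1.2 ± 0.13 (adjusted p = 3.9e-06), with D2 minus B6 at 1.06, 1.31, 2.49 and 1.5 through the stages. The cholesterol sulfotransferase gene Sult2b1 differed by -0.75 ± 0.12 (adjusted p = 0.0026), the phosphatase gene Ppm1m by -0.66 ± 0.10 (adjusted p = 0.0015) and Jpt2 by -0.71 ± 0.13 (adjusted p = 0.0095). At P7 they were called at -1.02, -1.32 and -0.78, with Ppm1m at 8.48, 8.19 and 8.26 in D2, against 9.50, 9.67 and 9.70 in B6. Slc6a3 differed by -1.36 ± 0.27 (adjusted p = 0.035), a call that was lost in each of the 6 fits that left out 1 D2 or B6 array of P7 (adjusted p 0.055 to 0.19). Its D2 minus B6 was -0.13, -0.13, -0.90 and 1.63 through the stages, so a P90 value of opposite sign enters the contrast. Car8, a Purkinje cell gene, differed by 0.84 ± 0.16 (adjusted p = 0.016) without a call at P7 itself. With the replicate block the contrast called 13 genes, and it called 3 without the first or without the third B6 array of P7.

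The contrast of P7 brain with P7 liver called 340 of the 12121 genes past the P7 brain filter (2.81%). Of these, 173 were higher and 167 lower in brain, and the contrast held 79 of the 198 genes of P7 brain. Its largest differences among those genes were Snhg14 (-4.01), Soga3 (-3.58), Slc15a2 (2.99), Kcnj9 (2.49) and Sstr1 (2.4). In P7 liver, D2 minus B6 of these genes was -1.18, 0.10, -1.37, -0.00 and 0.31. In B6, P7 liver minus P7 brain was -2.65 for Kcnj9 and -2.24 for Sstr1, across sets normalized apart. Their B6 brain means already lay under the filter, so their liver signal was low and a strain difference there may be missed. Hddc3 (2.35 in brain and 2.24 in liver), Taf15 (-2.27 and -2.30) and Rpgrip1 (-1.72 and -1.56) had like values in both organs, and this likeness was not tested for equality.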

How the data were processed

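Total RNA of whole brain had been labelled in 1 round of cDNA synthesis and hybridised to Affymetrix arrays, per the labels' protocols. The values are the authors' deposited log2 signals of 45101 probe sets, made with RMA per the submitters' processing notes; its version and the scanner data were not used here. Arrays of the same tissue and stage shared 1.55 to 4.35% of their values exactly and arrays of different sets 0%, as when the authors' normalization had been run apart in 8 sets. Symbols came from GEO's platform annotation: 34958 probe sets carried 1 symbol, 932 several and 9211 none, and 34754 matched RefSeq. A gene took the probe set with the highest mean over 36 brain arrays (9012 genes had several).

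The 9 P7 brain arrays were fitted with limma 3.58.1 in R 4.3.3 (lmFit with a mean per strain, eBayes, two-sided tests, 6 residual and 4.2 prior degrees of freedom), with Benjamini-Hochberg adjustment over 12121 genes. Tables were joined in Python 3.11.15. The number of arrays limits the precision. The code was tested on simulated data. Replicate numbers of the labels paired the D2 and B6 arrays. Their deviations from the group mean correlated across genes at 0.60, 0.62 and 0.70 for the 3 numbers. A replicate block was therefore an alternative, beside filters, probe set rules, normalizations, array sets and left-out arrays. The 129S2 arrays paired with D2 and B6 for numbers 1 and 2 (0.36 to 0.49) but not for number 3. The 129S2 replicate 3 array correlated at -0.18 with B6 replicate 3 and -0.19 with D2 replicate 3. With their replicate 1 arrays it correlated at 0.32 and 0.47. The block of the 9-array fit therefore holds a 129S2 array that its number does not pair, and the block with only the 6 arrays compared does not.

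The genes and lists were chosen with earlier results of these data known. Named genes are the 15 highest and 15 lowest called genes without overlap, up to 4 called genes per list, members of neighbour runs (starts within 1 Mb), all measured genes of the Glo1 and Alad segments and known alleles, and the 8 and 5 largest of the stage and tissue contrasts that were also called at P7. Clone-like symbols (5 higher and 14 lower) are named only in runs. Genes outside this rule are identified as such or are uncalled list members given beside a called one.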

Additional observations from a re-analysis of the deposited data

Results flagged for a closer look

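In 10 results the D2 minus B6 difference of P7 brain differed from that of another stage or tissue by the test of the difference itself. Both contrasts compare sets that the authors had normalized apart, and groups of 3 arrays are too small for a test of outlying arrays.

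Against the mean of E14.5, P1 and P90 brain, the P7 difference was 1.2 for Kcnj9, -0.75 for Sult2b1, -0.71 for Jpt2, -0.66 for Ppm1m and -1.36 for Slc6a3. Kcnj9, Sult2b1 and Ppm1m were called in every fit that left out 1 P7 array of D2 or B6. Jpt2 lost its call in 3 of those 6 fits (-0.70, -0.68 and -0.64) and Slc6a3 in 6 of 6. For Slc6a3 the mean of the other stages holds a P90 difference of opposite sign (1.63).

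Against P7 liver, the P7 brain difference was -4.01 for Snhg14, -3.58 for Soga3, 2.99 for Slc15a2, 2.49 for Kcnj9 and 2.4 for Sstr1. With probe sets averaged the value was 0.11 for Slc15a2 (adjusted p = 0.8, call lost) and -2.04 for Snhg14 (call kept). Kcnj9 and Sstr1 had low signal in P7 liver, where a strain difference may be missed.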

How the results depend on the processing

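The count of 198 called genes moved by more than 1.5 times with a filter at the 75th percentile of the set (110), no fold minimum (435), a 2-fold minimum (63), all probe sets tested (514) and a second probe set required (29). It was 172 to 209 with 1 array left out, 167 without the second array of all 3 strains and 184 with all 36 brain arrays. The replicate block gave 216, which held all 198 and 18 more, and with only the 6 arrays compared 226; beside the liver transcripts, Zic1 and Ntsr2 given above, it changed no call of a named gene. List members called (24) became 14 with the stricter filter, 45 with no fold minimum and 10 with a 2-fold minimum. Neighbour runs (6) became 0 with the stricter filter, 2 with a filter on the mean of 9 arrays, 10 with the block and 6 arrays, 18 with no fold minimum and 2 with a 2-fold minimum, and ranged from 3 to 8 with 1 array left out. The stage contrast (6) gave 12 with no filter, 11 after quantile normalization, 12 with no fold minimum, 13 with the block and 3 to 7 with 1 array left out. The tissue contrast (340) gave 542 with no filter, 214 with probe sets averaged, 513 with no fold minimum and 253 to 328 with 1 array left out. The direction of 2 genes turned, H2-D1 to 0.08 and Slc15a2 to -0.35, with probe sets averaged. Of 59 named called genes, 40 kept their call in every fit that tested them with the 1.5-fold minimum and 19 lost it in at least 1; genes that a stricter filter or a 2-fold minimum removes are not counted as lost here. The causes were not tested. Alternatives of 6 arrays with the block, of genes rich in liver left out (187) and of the second arrays left out were chosen after seeing the data.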

Other observations

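Probe sets without a single gene symbol carried part of the strain difference. Of 23420 probe sets past the filter, 514 were called (2.19%). Among these 23420, 3115 had no symbol or several, and 144 of the 3115 were called, 46 higher and 98 lower in D2. They cannot be named from the annotation used here.

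Called genes were spread over the chromosomes unevenly in number. On chromosome 14, 13 of 405 tested genes were called (3.21%), on chromosome 17, 14 of 570 (2.46%) and on chromosome 7, 22 of 915 (2.4%), against 2 of 393 on the X chromosome (0.509%) and 0 of 488 on chromosome 15. These shares are a description and were not tested. At an unadjusted p below 0.05 limma gave 854 higher and 778 lower genes over all chromosomes.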
